A study of Mus musculus with 138 samples.

Results

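The data described here are single-embryo RNA-seq libraries of mouse 2-cell embryos from the second of 2 embryo collections in a study of the chromatin remodeller SMARCA5. The collection was taken as every library titled as replicate 2 of the maternal deletion experiment, and its count columns were matched to samples by plate well. Libraries with at least 100000 counts in all were kept, which left 29 of the 138 libraries of the series: 15 labelled maternal deletion and 14 labelled wild type. A further 4 libraries labelled deletion (10 to 69056 counts) and 4 labelled wild type (0 to 67663 counts) fell under that depth.

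The deletion libraries carry the genotype Smarca5 +/- and, per the series' design text, came from females with a maternal knockout of Smarca5 mated to wild-type males, which gave heterozygous embryos. The wild-type libraries carry the genotype Smarca5 +/+. Sample titles of both groups name matKO females, which leaves the mothers of the groups undistinguished, and the effect of maternal loss cannot be told apart from that of the embryo's own heterozygous genotype. The Cre line, the promoter that drives it, the deleted exons and the ages of the animals were not given in the sources used here. Embryos of several matings were pooled into each collection, and the design text calls the collections technical replicates, so the p-values below measure only the spread between these libraries. On the plate, wild-type embryos lay in columns 1 and 2 and in wells G05 and H05, and deletion embryos in columns 3 to 5, so genotype and plate column cannot be told apart outside those 2 wells.

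SMARCA5, also called SNF2H, is an ATPase of the ISWI family that slides and spaces nucleosomes, in complexes with partners such as BAZ1A, BAZ1B and RSF1. A mouse egg is loaded with stored messenger RNA and protein. During the 2-cell stage that store is degraded while the embryo's genome is switched on, a change known as zygotic genome activation, which includes a short burst of genes typical of the 2-cell stage and a broad rise of genes for ribosome production, splicing and protein turnover.

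Library totals ran from 109007 to 12004992 counts in wild type (median 650104) and from 1018783 to 8391480 in deletion (median 4686051). The 5 shallowest libraries, all under 500000 counts, were wild type and lay in plate column 1. Counts on mitochondrially encoded genes took 1.29% to 6.34% of a wild-type library (median 2.71%) and 2.60% to 17.03% of a deletion library (median 4.26%). The 50 highest genes took a median of 11.9% of counts in wild type and 21.7% in deletion. In 3 wells without an embryo, 453 to 1875 counts were found.

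Smarca5 (ENSMUSG00000031715, GRCm38 chromosome 8, 80698507 to 80739497) was read first, as the check of the labels. In wild-type libraries it stood at 176 (well G05), 398 and 824 CPM (counts relative to library size, after TMM scaling), given as the lowest, the median and the highest library. In deletion libraries the same values were 3.61 (F03), 104 and 332 (A04). In 13 of 15 deletion libraries the level lay under the lowest wild-type library. Smarca5 fell by 1.91 on the log2 scale (SE 0.38, adjusted p = 0.000219, edgeR's quasi-likelihood test with Benjamini-Hochberg adjustment, as for every adjusted p below). Without the library of well A04 the log2 change was -2.12 (adjusted p = 2.37e-05).

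Gdf9 (ENSMUSG00000018238, chromosome 11, 53431023 to 53437904), which encodes an oocyte-secreted growth factor, separated the groups further. Its lowest, median and highest levels were 0, 34.6 and 718 CPM in wild type and 23.4 (A04), 5444 and 32291 CPM (F03) in deletion. Apart from G05 (718 CPM) and H05 (312 CPM), no wild-type library was above 74.9 CPM, and apart from A04 no deletion library was below 1587 CPM. Gdf9 rose by 6.38 on the log2 scale (SE 0.84, adjusted p = 1.23e-06), with 14 of 15 deletion libraries above the highest wild-type library. Without A04 the change was 6.47, without G05 it was 7.30, and without G05 and H05 it was 8.05.

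**Figure D1:**
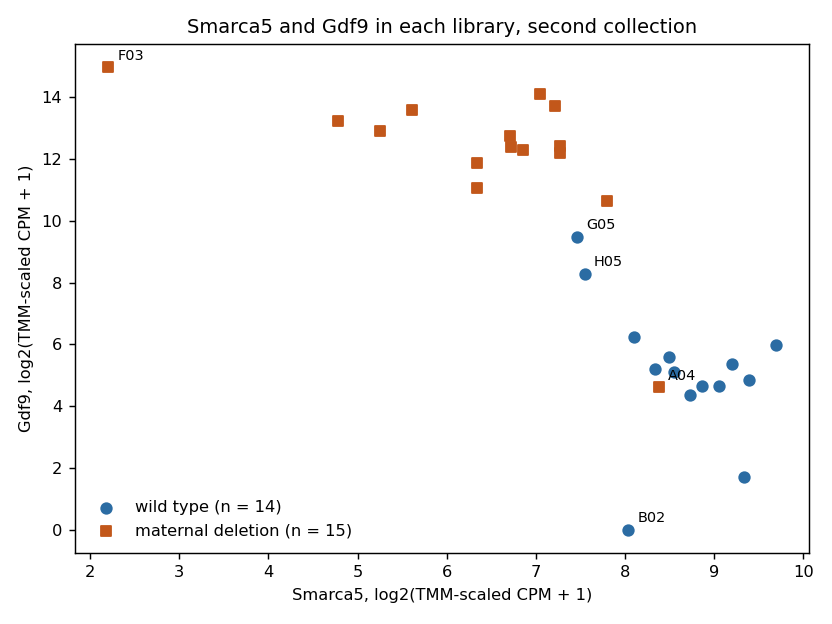
Level of Smarca5 (horizontal) against Gdf9 (vertical) in each library of the second collection, both as log2(TMM-scaled CPM + 1). Circles are the 14 wild-type libraries and squares the 15 deletion libraries. The square labelled A04 lies among the circles, and circles G05 and H05 lie nearest to the squares.

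The library labelled deletion of well A04 thus went against its label in both genes. It also correlated with the 12 wild-type libraries other than G05 and H05 at a median Spearman rho of 0.693 over genes, and with the other deletion libraries at 0.302. G05 correlated with those wild-type libraries at 0.531 and with the deletion libraries other than A04 at 0.593, and H05 at 0.678 and 0.437. A04 was not like wild type in every gene, by examples chosen after their values were seen. Krt8 had 113 counts there (34.3 CPM), against 5 counts in 1 wild-type library. Gal was read in A04 and in 0 wild-type libraries. Cdx2 and Eomes, in contrast, had 0 counts in A04. Results are therefore given with A04 and, where it matters, without it. A04, G05 and H05 were singled out by their values in these same libraries. A larger change or an added call without them follows in part from that choice and is no further evidence. G05 and H05 are also the only wild-type wells in a plate column that holds deletion embryos. Fits without them therefore leave genotype and plate column fully confounded. Whether plate column has a part in their values, or whether any of these 3 wells holds another embryo than its label says, was not tested.

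To place each embryo between the groups with genes chosen elsewhere, libraries were scored along the change seen in the first collection, which has its own controls. Genotype and plate column cannot be told apart in that collection either. The score, called position here, is the mean log2(CPM + 1) of the 1359 genes that rose at least 2-fold there minus that of the 1235 genes that fell at least 2-fold. Wild-type libraries lay between -4.09 and -3.37, except H05 at -2.47 and G05 at -1.07. Deletion libraries lay between 0.12 and 3.07 (median 2.08), except A04 at -2.97. No deletion library other than A04 overlapped with wild type. The deletion embryos did not form 1 tight group: C05, D04, E05 and A03 stood at 0.12 to 0.67 and the other 10 at 1.47 to 3.07.

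**Figure D2:**
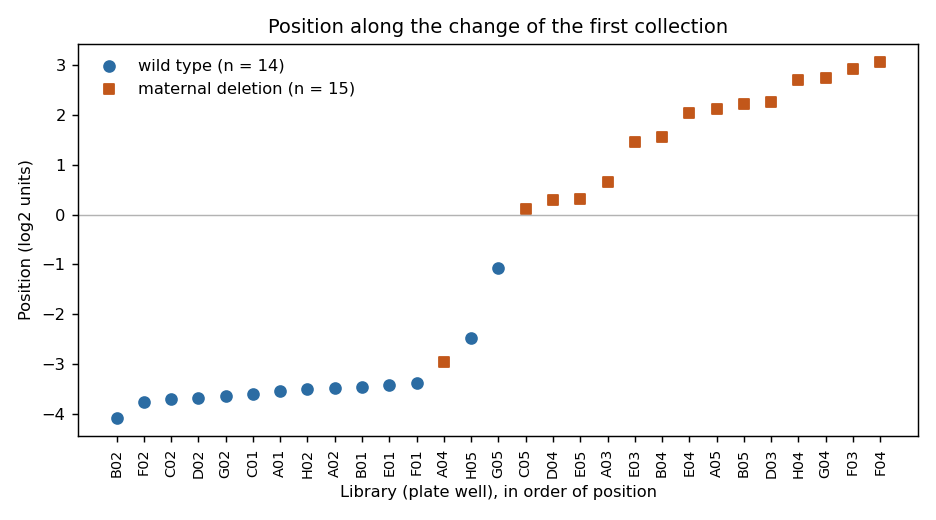
Position of each library along the first collection's change (vertical, log2 units), with libraries in order of position (horizontal, plate well). Circles are wild type and squares deletion; A04 sits at -2.97 beside the wild-type libraries, and 4 deletion libraries sit below 1.

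A family of 5 relations of position to other measures was computed over the 14 deletion libraries without A04. For this, Smarca5 and Gdf9 were left out of the score. Position and the share of counts on the 50 highest genes gave Pearson's r = 0.59 (permutation p = 0.0211, adjusted 0.0529) and Spearman's rho = 0.66 (permutation p = 0.0111, adjusted 0.0557), and r = 0.64 without D03 and A03. Position and the level of genes typical of the 2-cell stage gave r = -0.68 (permutation p = 0.0112, adjusted 0.0529) and rho = -0.51 (p = 0.0608, adjusted 0.152), and r = -0.45 without D04 and E05. The score subtracts 22 genes of that same list, and with them left out of it, an alternative chosen after seeing the data, r was -0.67 (permutation p = 0.0137), rho was -0.51 (p = 0.0608) and r was -0.43 without D04 and E05. Neither relation passed the adjusted threshold of 0.05.

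Residual Smarca5 RNA gave r = -0.46 with position (permutation p = 0.0669, adjusted 0.112) and rho = -0.43 (p = 0.127, adjusted 0.211). Without F03 and G04, the 2 libraries farthest from the median Smarca5 level, r was -0.20, so the relation rested on those libraries. Total counts gave r = -0.13 (permutation p = 0.661, adjusted 0.714) and rho = 0.029 (p = 0.925), and the mitochondrial share gave r = -0.098 (p = 0.714, adjusted 0.714) and rho = -0.35 (p = 0.223, adjusted 0.279). Leaving out their 2 farthest libraries gave r = -0.44 and -0.24.

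Across all genes, 9730 passed the filter on low counts, and 3879 of them (39.9%) changed between deletion and wild type. Of these, 2347 (24.1% of genes tested) were higher in deletion and 1532 (15.7%) were lower. Nearly all changes were large: 2280 of the rises and 1468 of the falls were at least 2-fold. With A04 left out, 4442 of 9559 genes changed (46.5%), 2510 higher (26.3%) and 1932 lower (20.2%), and 3812 of the 3827 changed genes tested in both fits were called in the same direction. The median change over all genes tested was 0.30 on the log2 scale, and it moved to -0.06 when libraries were scaled by total counts alone. Under that scaling 1873 genes were higher and 2029 lower, so the share of calls that were higher went from 60.5% to 48.0%. Levels are relative to the RNA sequenced in each library, and no spike-in line was in the table, so an amount per embryo is not given. Since each library is a whole well, fewer cells of a type and less RNA per cell cannot be told apart.

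Stored maternal transcripts were higher in deletion embryos. Of 9 tested genes for oocyte-secreted factors and zona pellucida proteins (the coat of the egg), 7 rose (77.8%) and 0 fell. Of all genes tested, 24.1% rose and 15.7% fell. The median log2 change of the list was 3.86, against 0.30 over all genes. Without A04, 9 of its genes rose, where 26.3% of all genes did. The mean level of the list, as log2(CPM + 1), was 1.54, 4.09 and 6.63 in wild type (lowest, median, highest) and 3.89, 8.32 and 9.28 in deletion. All deletion libraries except A04 were at 6.90 or above, over every wild-type library.

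Within that list, Bmp15, a partner of GDF9 in signalling to the cumulus cells, stood at 1.08, 111 and 860.1 CPM in wild type and at 54.3, 981 and 5796 CPM in deletion. It rose by 2.69 (SE 0.57, adjusted p = 0.000428), with 8 of 15 deletion libraries above the highest wild-type one, and by 3.44 without G05 and H05. Zp1, a zona protein that cross-links the coat, went from 0, 10.2 and 85.5 CPM to 0 (A04), 598 and 861 CPM, with every deletion library but A04 at 211 CPM or more (log2 change 4.58, SE 0.87, adjusted p = 0.000149; 5.29 without G05 and H05). Astl encodes ovastacin, the protease that hardens the zona after fertilization. It had counts in 4 of 14 wild-type libraries, 34 in all, and in 13 of 15 deletion libraries (median 124 CPM, log2 change 6.42, SE 1.13, adjusted p = 5.28e-05; 8.32 without G05).

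The subcortical maternal complex, a protein assembly under the egg's membrane needed for the first divisions, was higher too. Of its 9 tested genes 7 rose (77.8%) and 0 fell (median 2.43), against 24.1% and 15.7% of all genes tested. Nlrp5, also called Mater, stood at 0, 54.9 and 172 CPM in wild type and 57.3 (A04), 517 and 1477 CPM in deletion (log2 change 3.18, SE 0.53, adjusted p = 2.86e-05). All deletion libraries except A04 were above the highest wild-type library. Zbed3 did not pass (1.36, SE 0.57, adjusted p = 0.0548), and its highest wild-type level, 14529 CPM, was in G05. Without A04 it passed (1.45, adjusted p = 0.0296), and without G05 and H05 its change was 2.38 (adjusted p = 0.000498). Among 12 tested oocyte NLRP genes 7 rose (58.3%) and 0 fell (median 2.02), of which Nlrp4f, Nlrp5 and Nlrp14 also count for the complex.

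Genes that store maternal messenger RNA and hold its translation back also stood higher. Of 15 tested 9 rose (60%) and 0 fell (median 1.501), against 24.1% and 15.7% of all genes tested. Zar1 (log2 change 5.21) and Mos (3.40) were among the storage genes that rose, chosen here after their values were seen. Lsm14b, an RNA-binding protein of storage particles, was at 3.25, 78.6 and 582 CPM in wild type and 67.6 (A04), 871 and 2369 CPM in deletion (3.03, SE 0.49, adjusted p = 1.83e-05). Patl2, a translational repressor of the oocyte, had 3 counts in 1 wild-type library and 1588 counts in 13 deletion libraries. Ddx6 and Caprin1, also of these particles, did not pass (-0.33 and -0.45).

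Scaling by total counts left 6, 6, 7 and 8 rises and 0 falls in the lists of oocyte-secreted and zona genes, the subcortical complex, oocyte NLRP genes and storage genes. Among libraries of at least 500000 counts the rises were 7, 5, 4 and 5, again with 0 falls. Of all genes tested, 1873 of 9730 rose under scaling by total counts and 1590 of 11243 in these deeper libraries.

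Of 22 tested genes of the machinery that removes maternal messenger RNA, 7 rose and 3 fell (median 1.09). These shares, 31.8% and 13.6%, were near the 24.1% and 15.7% of all genes tested. The largest rise was Cnot7, a deadenylase subunit, from 47.6, 203 and 1171 CPM to 196, 1676 and 4030 CPM (2.61, SE 0.41, adjusted p = 1.31e-05). Btg4, the adaptor that brings this deadenylase to maternal messages, did not pass (1.26, SE 0.71, adjusted p = 0.148), although it did without G05 and H05 (2.38, adjusted p = 0.00813). Cnot10, another subunit, fell by 1.74 (SE 0.65, adjusted p = 0.0319), a call that was lost when C02 or D02 was left out (adjusted p = 0.0556 and 0.0526) or libraries under 500000 counts were (0.0771).

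Few transcription factors of the oocyte were measurable: 4 of 8 in the table were tested. Nobox rose (2.39, SE 0.89, adjusted p = 0.0316; 0.0603 without D03 and 0.0529 without F01, and 3.02 on the log2 scale without G05), as did Foxo3 (1.20, SE 0.28, adjusted p = 0.00126), while Taf4b fell by 0.92 (SE 0.29, adjusted p = 0.0113). Of 22 tested regulators of mitosis and meiosis, 3 rose and 7 fell (median 0.01), which is 13.6% and 31.8% against 24.1% and 15.7% of all genes. Wee2, the oocyte kinase that restrains CDK1, rose by 2.102 (SE 0.62, adjusted p = 0.00792), from 5.41, 64.2 and 1327 CPM (G05) to 63.4, 660.3 and 2140 CPM. Its change was 3.09 without G05, and it did not pass among libraries of at least 500000 counts (1.75, adjusted p = 0.0817).

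Among the 7 that fell, Ccnb1, the cyclin partner of CDK1, went from 929, 1276 and 2731 CPM to 173, 564 and 1506 CPM, with 13 of 15 deletion libraries under the lowest wild-type library (-1.18, SE 0.26, adjusted p = 0.000768). Aurka, a spindle kinase, changed by -2.38 (SE 0.60, adjusted p = 0.00224), and by -3.04 without A04. Cdc20, an activator of the anaphase-promoting complex, changed by -2.01 (SE 0.54, adjusted p = 0.0036), and by -3.01 without A04, whose level of 2295 CPM lay within the wild-type range. Anapc7, a subunit of that complex and 1 of the 6 largest measurable falls of the collection, was at 81.5, 380.0 and 746 CPM in wild type and at 0, 20.7 and 142 CPM in deletion (-3.85, SE 0.75, adjusted p = 0.000186).

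Genes of ribosome production were lower in deletion embryos, without exception among the calls. Of 82 tested nucleolar and rRNA-processing genes 63 fell (76.8%) and 0 rose (median -1.98). Of 82 cytosolic ribosomal protein genes 57 fell (69.5%) and 0 rose (median -1.69). Over all genes tested, 15.7% fell and 24.1% rose. Without A04, 72 and 66 members of these lists fell, where 20.2% of all genes did. The nucleolar level was 6.01 (G05), 7.22 and 8.01 in wild type and 3.08, 4.20 and 7.39 (A04) in deletion, as mean log2(CPM + 1). The ribosomal protein level was 5.77 (G05), 7.06 and 7.94 in wild type and 2.73, 4.62 and 7.37 (A04) in deletion. The next highest deletion libraries stood at 5.51 and 6.39. The nucleolar groups therefore did not overlap apart from A04, while 6.39 for ribosomal proteins fell within the wild-type range. Under scaling by total counts, 66 members of each list fell and 0 rose, where 2029 of all 9730 genes tested fell. Ribosomal protein genes have many processed pseudogenes, and how the deposited counts split reads between copies was not given.

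Wdr43, a factor of the small-subunit processome, showed the pattern in single libraries. It stood at 342, 920 and 1868 CPM in wild type and at 40.5, 142 and 1350 CPM (A04) in deletion, and the highest deletion library other than A04 was at 268 CPM (log2 change -2.03, SE 0.39, adjusted p = 0.000131; -2.69 without A04). Nop2, an rRNA methyltransferase, was at 9.74 (B02), 287 and 564 CPM in wild type and at 0, 17.5 and 51.1 CPM in deletion (-3.86, SE 0.65, adjusted p = 2.95e-05). Mybbp1a, a nucleolar protein that binds MYB, was at 22.5, 247 and 538 CPM against 0, 2.09 and 174 CPM (-3.88, SE 0.87, adjusted p = 0.000849; -5.26 without A04).

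Rpl41, which encodes a very short protein of the large subunit, did not pass with A04 (-1.05, SE 0.44, adjusted p = 0.0565) and did without it (-1.78, adjusted p = 0.000139). In A04 it was at 3524 CPM, above the highest wild-type library at 2467 CPM.

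**Figure D3:**
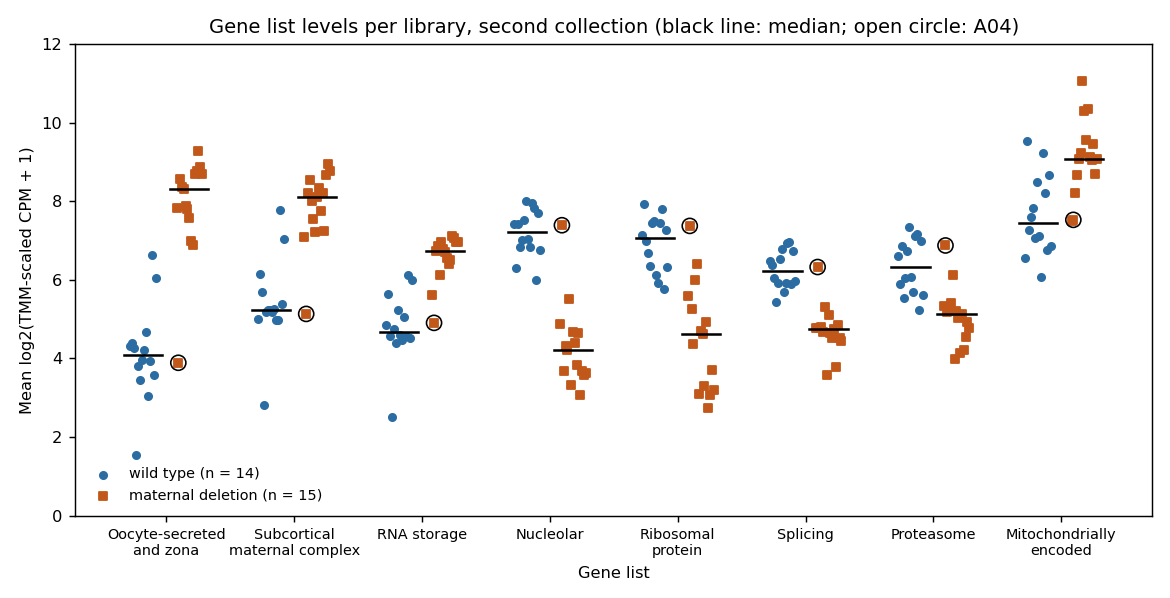
Mean log2(TMM-scaled CPM + 1) of 8 gene lists (horizontal) in each of the 14 wild-type (circles) and 15 deletion (squares) libraries, with black lines at the medians and an open circle around A04. The first 3 lists are higher in deletion, the next 4 are lower, and the mitochondrially encoded list is higher but overlaps.

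Other gene groups of the broad activation are set here against the 15.7% of all genes that fell and the 24.1% that rose. Of 76 tested splicing genes 40 fell (52.6%) and 1, Lsm6, rose (median -1.22). Of 41 translation initiation factors 24 fell (58.5%) and 2 rose (-1.08), of 44 proteasome genes 21 fell (47.7%) and 2 rose (-0.96), and of 53 nuclear pore and transport genes 18 fell (33.96%) and 3 rose (-0.63). Of 82 genes of RNA polymerase II, its general factors and Mediator, 22 fell (26.8%) and 7 rose (-0.80), of 24 chaperonin and heat shock genes 11 fell (45.8%) and 1 rose (-0.71), and of 22 aminoacyl-tRNA synthetases 6 fell (27.3%) and 1 rose (-1.06). Lsm6 lost its call among libraries of at least 500000 counts (1.29, adjusted p = 0.0504). Each of these medians lay below that of all genes, 0.30.

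Tpr, the protein of the nuclear pore basket, gave one of the cleanest separations, with 568, 1210 and 2525 CPM in wild type and 47.4, 256 and 919 CPM (A04) in deletion (-2.08, SE 0.31, adjusted p = 5.61e-06). Kpna2, an importin that carries proteins into the nucleus, was at 749, 1170 and 1949 CPM and at 51.4, 158 and 1993 CPM (A04), with 14 of 15 deletion libraries under the lowest wild-type one (-2.04, SE 0.42, adjusted p = 0.000347; -2.75 without A04). Med29, a Mediator subunit, was at 241, 432 and 790 CPM against 0, 7.32 and 480.5 CPM (A04), and 139 CPM in the next highest deletion library (-3.10, SE 0.78, adjusted p = 0.00248; -4.22 without A04). In these 3 genes A04 was the highest deletion library and the only one to reach the wild-type range.

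Psmb5, a catalytic subunit of the proteasome, was at 76.9 (G05), 235 and 371 CPM in wild type and at 0, 7.95 and 115 CPM in deletion (-3.66, SE 0.74, adjusted p = 0.000256; -4.34 without A04). Its family was not uniform: Psme4, the PA200 activator of the proteasome, rose by 1.28 (SE 0.31, adjusted p = 0.00178), from a median of 256 to 657 CPM. In the polymerase list Polr2j, a small core subunit, rose by 1.62 (SE 0.29, adjusted p = 7.41e-05), from 169, 320.4 and 1382 CPM to 493, 1169 and 2416 CPM.

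Of 75 tested nuclear-encoded subunits of the respiratory chain, 13 fell and 8 rose (median -0.64). The share that fell, 17.3%, was near the 15.7% of all genes, and the share that rose, 10.7%, was under their 24.1%. Without A04 23 fell and 8 rose. Uqcrfs1, the iron-sulphur subunit of complex III, went from 39.8, 106 and 288 CPM to 0, 6.10 and 50.4 CPM (-3.50, SE 0.75, adjusted p = 0.000522). Ndufa1, a small subunit of complex I, moved the other way. It was at 3.93, 25.3 and 78.4 CPM in wild type and at 80.7 (A04), 317 and 780 CPM in deletion, so that all 15 deletion libraries, A04 included, lay above the highest wild-type library (3.67, SE 0.41, adjusted p = 1.01e-07).

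Transcripts of the mitochondrial genome were higher, with 10 of 13 risen (76.9%) and 0 fallen (median 1.42). Of all genes tested, 24.1% rose and 15.7% fell. The mean level of the mitochondrial list was 6.07 (F01), 7.43 and 9.52 (A02) in wild type and 7.49, 9.08 and 11.06 (D03) in deletion, and the groups overlapped. The count of rises depended on the libraries and the scaling. It was 12 without A04, 6 without F01 and 6 without G05 and H05. Under scaling by total counts it was 6, and among libraries of at least 500000 counts it was 4. The complex I gene mt-Nd1 rose by 1.63 (SE 0.36, adjusted p = 0.00061), from a median of 3789 to 11962 CPM. The call for mt-Cytb (0.83, SE 0.31, adjusted p = 0.031) was lost without A01, E01, F01 or D03, at adjusted p = 0.0518, 0.0516, 0.155 and 0.105, and also without G05 and H05 (0.0639), under scaling by total counts (0.182) and among libraries of at least 500000 counts (0.301).

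Genes of the burst typical of the 2-cell stage mostly did not pass the test in this collection. Of 41 such genes with a line of counts, 28 were tested, 1 rose (Zfp750), 2 fell (Sp110 and Trim43a), and the median was 0.15, close to that of all genes at 0.30. The shares that rose and fell, 3.57% and 7.14%, were under the 24.1% and 15.7% of all genes tested. The mean level was 2.02, 3.28 and 6.14 in wild type and 0.86, 2.54 and 6.48 in deletion, so the groups overlapped from end to end. The highest deletion libraries were D04 (6.48), E05 (6.16), B04 (5.28) and C05 (4.32), and the highest wild-type libraries were G05 (6.14), H05 (5.35) and A02 (4.89). The calls turned on 3 libraries: without A04 5 members fell and 1 rose (median 0.24), without G05 and H05 2 fell and 5 rose (median 1.21), and without all 3 libraries 5 fell and 5 rose (median 1.20). Zfp750 rose by 3.06 (4.53 without G05) and did not pass among libraries of at least 500000 counts (adjusted p = 0.0642). Many of these genes lie in families of near-identical copies, so their counts are uncertain.

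Zscan4d, a marker of this burst chosen after its values were seen, showed the spread plainly. In deletion it stood at 949.7 CPM in D04, 903.8 in E05, 221 in A04 and 119 in B04, and at 0 in 6 of 15 libraries. In wild type it ran from 0 in B02 to 407 CPM in G05. Sp110, a nuclear body protein, was at 177, 360 and 663 CPM in wild type and 0, 65.2 and 423 CPM (A04) in deletion (-1.75, SE 0.54, adjusted p = 0.0106). Trim43b did not pass with A04 (-1.44, SE 0.74, adjusted p = 0.117) and did without it (-1.78, adjusted p = 0.0463).

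**Figure D4:**
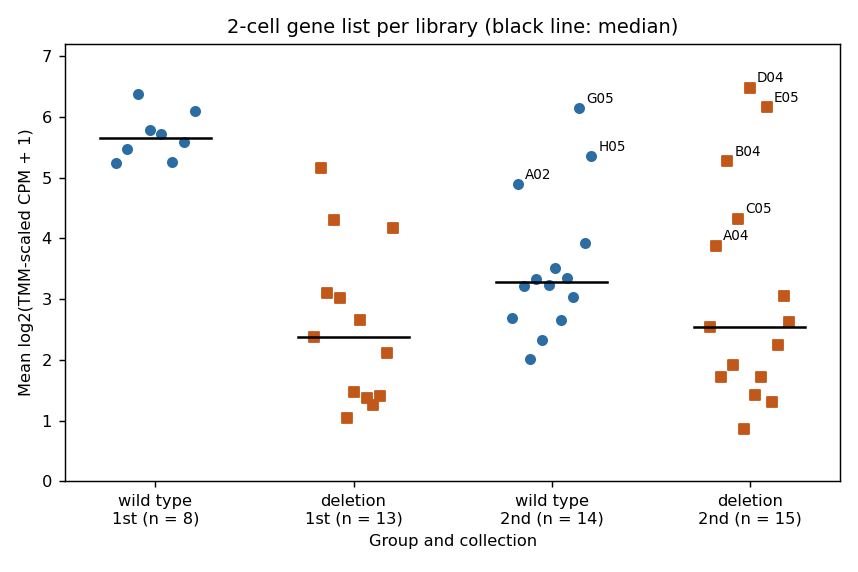
Mean log2(TMM-scaled CPM + 1) of the list of 2-cell genes (vertical) by group and collection (horizontal), 1 point per library, with black lines at the medians; the collections were scaled separately. In the second collection both groups spread widely, from 2.02 to 6.14 in wild type and from 0.86 to 6.48 in deletion.

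Obox genes, a homeobox family expressed from the egg into the 2-cell embryo, went both ways: of 5 tested, Obox1 and Obox2 rose and Obox3 and Obox6 fell. Obox6 was at 209 (G05), 839 and 1404 CPM in wild type and at 10.1, 88.2 and 1742 CPM (A04) in deletion (-1.96, SE 0.54, adjusted p = 0.0046; -2.94 without A04). Obox5 did not pass (0.17, SE 0.69, adjusted p = 0.86), and its change was 1.05 without G05. The Obox2 call (2.11, SE 0.85, adjusted p = 0.0457) was lost in 18 of the 29 fits that each left out 1 library, and Obox3 (-2.75, SE 1.04, adjusted p = 0.0334) lost its call without C01 (adjusted p = 0.05003). Without G05 the change of Obox2 was 3.38, and without B04 that of Obox3 was -3.49. Among libraries of at least 500000 counts neither passed (adjusted p = 0.153 and 0.152). Under scaling by total counts 0 Obox genes rose. Members of this family resemble each other closely, so reads may be split between them.

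Transcription factors of genome activation and the early embryo went both ways, with 8 risen and 9 fallen of 27 tested (median -0.08 against 0.30 over all genes). These shares, 29.6% and 33.3%, stand against 24.1% and 15.7% of all genes tested. Zbtb17, also called Miz1, a partner of MYC, fell the most: it was at 7.92 (A02), 186 and 386 CPM in wild type and at 0, 1.35 and 45.4 CPM in deletion (-5.17, SE 0.88, adjusted p = 3.73e-05; -6.21 without D04). Dppa2, an activator of 2-cell genes, was at 112 (G05), 369 and 1301 CPM against 0.722, 51.8 and 441 CPM (A04) (-2.47, SE 0.53, adjusted p = 0.000489). Klf17, a zinc-finger factor, did not pass, at a median of 862 CPM in wild type and 996 CPM in deletion (0.19, SE 0.24, adjusted p = 0.534).

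Gata3, a factor of the trophectoderm, the outer lineage of the blastocyst, rose. It was at 0, 0.196 and 8.71 CPM in wild type and at 0 (A04), 78.0 and 465 CPM (E05) in deletion, with 13 of 15 deletion libraries above the highest wild-type library (5.51, SE 0.85, adjusted p = 1.03e-05). Of 14 markers of stages after the 8-cell stage 3 were tested: Krt18 and Tfap2a rose and Gata4 fell (-2.16, SE 0.58, adjusted p = 0.00409). Their summed level ran from 55.3 to 230 CPM in wild type and from 50.9 to 1430 CPM (E05) in deletion.

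Further genes of the outer lineage, chosen after their values were seen, were read in part of the deletion libraries. Of these, Cdx2 and Krt8 were among the markers planned for stages after the 8-cell stage. They were picked for their values and do not stand for those markers as a set. Cdx2 had counts in 7 of 15 deletion libraries, at 159 CPM in E05 and 73.1 CPM in A03, and 1 count in all wild-type libraries together. Krt8, a keratin of the outer cells, had counts in 12 of 15 deletion libraries (582 CPM in E05, 210.5 in C05 and 186 in A03) and 5 counts in 1 wild-type library. Eomes had counts in 8 of 15 deletion and 0 of 14 wild-type libraries. The deletion libraries were the deeper ones, and the part of depth in these counts was not tested.

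Of 12 tested genes for SMARCA5 and its partners, 1 rose (Pole3, a histone-fold subunit of the CHRAC complex, 1.87, SE 0.49, adjusted p = 0.00327) and 2 fell, Smarca5 itself and Baz1a (-1.34). The share that rose, 8.33%, was under the 24.1% of all genes tested. The share that fell, 16.7%, was near their 15.7%. Bptf, the large subunit of NURF, did not pass (-0.04, SE 0.27, adjusted p = 0.914), and Smarca1, the other ISWI ATPase, had 0 counts in every kept library. Of 19 other remodelling ATPases 2 rose and 5 fell (median -0.43), which is 10.5% and 26.3% against 24.1% and 15.7% of all genes. Smarca2, an ATPase of SWI/SNF complexes also called BRM, was at 9.53, 33.7 and 117 CPM in wild type and at 77.7 (A04), 349 and 705 CPM in deletion (3.05, SE 0.41, adjusted p = 1.26e-06). Its paralogue Smarca4, or BRG1, fell by 2.14, and Atrx fell by 1.28 (SE 0.32, adjusted p = 0.00197).

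Genes of the p53 and DNA damage response gave 5 rises and 2 falls of 22 tested (median 0.56), or 22.7% and 9.09%, near or under the 24.1% and 15.7% of all genes. Mdm4, an inhibitor of p53, went from 490.0, 1439 and 4140 CPM to 2254 (A04), 7714 and 12407 CPM, with 13 of 15 deletion libraries above every wild-type library (2.15, SE 0.29, adjusted p = 1.29e-06). Mdm2, the ligase that degrades p53, rose by 1.38 (SE 0.33, adjusted p = 0.00148), and Sesn2, a stress-response gene, fell by 2.01 (SE 0.60, adjusted p = 0.00853). Cdkn1a, the p21 inhibitor of the cell cycle, was not called (0.44).

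The 6 largest rises with over 3 counts in at least 7 of 14 wild-type libraries and in as large a share of deletion libraries were Gdf9 and Rcn2, Tbc1d22b, Furin, Bscl2 and Zp1. Rcn2, a calcium-binding protein of the endoplasmic reticulum, was at 0, 32.4 and 135 CPM in wild type and at 87.4 (A04), 1510 and 3654 CPM in deletion (4.99, SE 0.53, adjusted p = 5.98e-08). Furin, the convertase that cleaves secreted precursors, was at 0, 3.66 and 34.3 CPM against 10.9, 125 and 964 CPM (4.66, SE 0.72, adjusted p = 9.05e-06; 5.33 without D02). Bscl2, or seipin, which shapes lipid droplets, was at 0, 30.2 and 265 CPM against 32.5, 943 and 2642 CPM (4.61, SE 0.69, adjusted p = 6.46e-06; 5.26 without G05). In all of these A04 was the lowest deletion library.

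Beside Anapc7, Nop2 and Mybbp1a, the largest falls of this kind were Gls2, Prps1l3 and Usp22. Gls2, a glutaminase, was at 0, 48.5 and 159 CPM in wild type and 0, 0.677 and 23.1 CPM in deletion (-3.94, SE 1.01, adjusted p = 0.00274; -4.69 without B05). Prps1l3 resembles a phosphoribosyl pyrophosphate synthetase. It was at 73.9, 165 and 299 CPM against 0.852, 3.41 and 74.3 CPM (A04), with 26.8 CPM in the next highest deletion library (-3.93, SE 0.60, adjusted p = 8.9e-06; -4.65 without A04). Usp22, the deubiquitinase of the SAGA complex, was at 216, 443 and 804 CPM against 0, 11.9 and 274 CPM (A04) (-3.78, SE 0.80, adjusted p = 0.00049; -4.78 without A04).

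Some genes were read almost only in 1 group. Gal, which encodes the neuropeptide galanin, had 0 counts in the 14 wild-type libraries and 5858 in deletion. Against a floor of 3 counts over the whole wild-type group, it was at least 1511-fold higher. By the same floor 4932438H23Rik was at least 740-fold and 4931406G06Rik at least 418-fold higher. The latter pair overlap on opposite strands of chromosome 16, and whether the counting used strand was not given. Each of the 3 had over 3 counts in 13 of 15 deletion libraries. Lsr, a receptor of tight junctions and lipoproteins, had 3 counts in 1 wild-type library and 4888 in 14 deletion libraries.

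In the other direction Pld6, an enzyme of the mitochondrial surface needed for piRNA production, had counts in all 14 wild-type libraries, at 14.98, 71.5 and 126 CPM, and 49 counts in 6 of 15 deletion libraries, none above 13.4 CPM (-5.79, SE 0.97, adjusted p = 2.86e-05; -6.83 without E04). Mfsd12, a lysosomal cysteine transporter, had counts in 13 of 14 wild-type libraries and 12 counts in 2 deletion libraries. Rtn2 and Chtf18 had counts in 13 of 14 wild-type and in 5 and 3 of 15 deletion libraries.

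Markers of cells that could come along with an egg were low. Of 22 cumulus and granulosa markers 3 were tested, 0 rose and Amhr2 fell (-2.36, SE 0.88, adjusted p = 0.0313; 0.115 among libraries of at least 500000 counts), and the summed level was 81.3 to 413 CPM in wild type and 26.2 to 247 CPM in deletion, with Lhcgr and Inha at 0 in every library. Of 9 sperm markers 1, Ldhc, was tested and did not pass (-1.999, SE 0.85, adjusted p = 0.058), though it did without A04 (0.0295). The summed sperm level was 0.55 to 158 CPM in wild type and 0 to 91.1 CPM in deletion, and Tnp1 and Smcp were at 0 throughout. The part of either cell type in the results was not tested.

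Deletion embryos did not differ detectably in how many genes were read. After thinning every library to 100000 counts, 8197 ± 1045 genes (SD, n = 15) had a count in deletion and 7808 ± 806 (SD, n = 14) in wild type, which is 390 more in deletion (permutation p = 0.275, two-sided). The difference was 387 without A04 (p = 0.295) and 1102 (p = 0.129) when thinned to 500000 counts without A04, G05 and H05. The biological coefficient of variation, the spread between libraries of a group beyond counting error, was 1.25 among deletion libraries without A04 and 1.05 among wild-type libraries without G05 and H05. In libraries of at least 500000 counts it was 1.25 and 1.15. These are descriptions with no test.

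The first collection has 13 deletion and 8 wild-type libraries at this depth, with its own controls, and was sequenced on another lane, which leaves lane and collection confounded. No plate column of the first collection held both genotypes, so genotype and plate column cannot be told apart in it. There 2801 of 6389 tested genes changed (43.8%). Of 6275 genes tested in both collections, 3006 were called in the second and 2743 in the first, and 1832 in both, which is 60.9% and 66.8% of each list. Of those 1832 genes 1823 changed in the same direction and 9 in opposite directions. Over all 6275 genes, 80.1% had the same sign and the fitted changes gave r = 0.78 and rho = 0.78 across genes, which are not independent replicates.

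**Figure D5:**
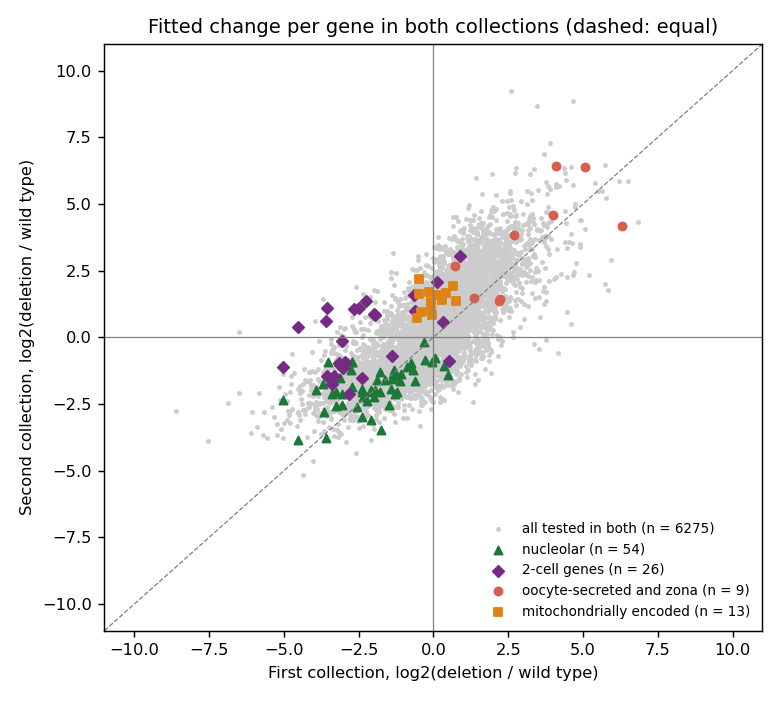
Fitted log2 change between deletion and wild type per gene in the first collection (horizontal) and the second (vertical), for 6275 genes tested in both; the dashed line marks equal change. Nucleolar genes (triangles) are below 0 on both axes for the most part, oocyte-secreted and zona genes (circles) are above 0 on both, and 2-cell genes (diamonds) reach far lower in the first collection.

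Gene groups that moved in the second collection had these counts in the first. Oocyte-secreted and zona genes gave 9 rises and 0 falls of 9 tested, and the subcortical complex 7 and 0 of 9. Nucleolar genes gave 0 and 40 of 54 and ribosomal protein genes 0 and 43 of 59. Oocyte NLRP genes gave 7 and 0 of 11, splicing genes 3 and 26 of 59, and initiation factors 2 and 10 of 29. Nuclear pore genes gave 1 and 20 of 47, chaperonin and heat shock genes 2 and 11 of 21. Other groups moved less there. Storage genes gave 4 and 1 of 12 (median 0.29), and proteasome genes 4 and 8 of 32 (median -0.04). The polymerase II list gave 9 and 19 of 68 (median -0.20). Over all genes tested there, 1508 of 6389 rose and 1293 fell. Smarca5 changed by -2.16 and Gdf9 by 5.06 there, against -1.91 and 6.38 here, and neither difference passed in the test of the interaction (adjusted p = 0.937 and 0.534).

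The list of 2-cell genes gave 0 rises and 22 falls of 29 in the first collection (median -2.64), against 1 and 2 of 28 here, and 0 of its 36 genes tested for the difference between the collections passed that test. Of all 6389 genes tested in the first collection, 1508 rose and 1293 fell. The level of the 2-cell list in wild-type embryos of the first collection was 5.24, 5.65 and 6.38, and in its deletion embryos 1.04, 2.37 and 5.16, each scaled within its own collection. The wild-type median was thus 5.65 there and 3.28 here, while the deletion medians were 2.37 and 2.54. Mitochondrially encoded genes gave 0 calls of 13 in the first collection against 10 of 13 here, and 1 of the 13, mt-Nd1, passed the test of the difference.

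A test of the difference between collections in the effect of the deletion (an interaction term fitted on all 4 groups) called 123 of 11352 genes (1.08%), with 1769 at an unadjusted p under 0.05. The change was higher in the second collection for 108 and lower for 15. The signs were opposite in 45, and in 73 of the rest the change was larger in size in the second collection. This count depended on a few libraries: it was 300 without A04, 1263 without A04, G05 and H05, and 4 among libraries of at least 500000 counts. The excess of higher over lower calls depended on the method. Over all genes the median difference was 0.40, and under DESeq2 165 genes were higher and 145 lower.

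Named genes of the interaction were the 4 largest differences each way. Obox3 had 347 counts in the 8 wild-type and 0 in the 13 deletion libraries of the first collection, and 1363 and 525 counts here, the latter in 5 of 15 deletion libraries (adjusted p of the difference 0.0358). Gm12800 and Gm4778 had 4 counts and 1 count in deletion libraries of the first collection and 1543 and 1856 here, each in 6 of 15. Jkamp, a membrane protein that anchors the kinase JNK1, changed by 4.15 in the first and -0.57 in the second, with medians of 61.4 CPM in wild type and 43.8 CPM in deletion here (difference -4.96, SE 0.97, adjusted p = 0.00988). Yy2, a retrogene relative of the factor YY1, was not called in the first collection (0.30) and changed by -2.31 here (difference -2.78, SE 0.64, adjusted p = 0.0268). Wild-type levels of Yy2 here were 94.9 (G05), 498 and 1693 CPM, and deletion levels 6.50, 113 and 219 CPM. Smpd1 and Psma7 changed by 3.52 and 3.77 in the first collection and by -0.43 and -0.11 here, the latter pair not called. In wild-type libraries of the first collection Jkamp, Smpd1 and Psma7 had 7, 18 and 11 counts, in 1, 4 and 4 of 8 libraries. Wild-type libraries here held 4274, 7867 and 6842 counts of them. The rises of these genes in the first collection thus rest on wild-type counts near the floor.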

How the data were processed

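Polyadenylated RNA was sequenced from single mouse embryos with the scNMT-seq protocol and Nextera XT dual indexes, per the labels' protocols. The authors deposited raw counts of reads per gene, 1 column per plate well. The submitters' processing notes name Trim Galore 0.6.5, cutadapt 2.3, HISAT2 2.1.0 and the build GRCm38. The annotation release and the handling of strand, duplicates and reads with several matches are not given in the sources used here. The table held 25965 lines, and summing the 57 identifiers on more than 1 line left 25900 genes. Odd counts outnumbered even ones (20051 table cells of the kept libraries held 1 and 3962 held 2), for a reason not given, so counting error taken from single counts can be too small.

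Columns were matched to samples by well, and groups were taken from the labels. No pair of libraries in a group held the same values or differed only by counting noise (chi-square of at least 4.53 per degree of freedom). Counts were compared in R 4.3.3 with edgeR 4.0.16: TMM scaling, filterByExpr, robust quasi-likelihood test on the 29 libraries of the collection with no covariate, and Benjamini-Hochberg adjustment over all genes tested, called under 0.05. Standard errors were derived from the F statistic (absolute change over its square root). DESeq2 1.42.0 was an alternative. The test was checked on simulated counts in which a small share of genes changed, as many up as down. That check does not cover changes in a large share of genes or outlying libraries, as found here. List levels are means of log2(CPM + 1). Permutation tests were two-sided with 100000 resamples.

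The members and gene lists were chosen with earlier results of these data known. Genes were named by this rule: Smarca5 and Gdf9; of the changed genes that average 4 or more log2 CPM and keep their sign without A04, the 6 largest rises and falls with over 3 counts in 50% or more of the libraries of each group, and the 4 largest each way among the others; in each list the 2 highest members and the largest called rise and fall; the highest member of lists of other cell types; and the 4 largest interactions each way. Other genes named as examples of a list, with a log2 change alone, were chosen after their values were seen. Of 9730 tested genes 7738 (79.5%) matched a RefSeq promoter entry, under the 80% needed, so promoters were not compared. The result for 1 gene that this rule picked is not reported here.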

Additional observations from a re-analysis of the deposited data

Results flagged for a closer look

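The interaction test called 123 genes as responding differently to the deletion in the 2 collections. Named genes among them, with the adjusted p of that difference from edgeR's quasi-likelihood test, were Gal (0.00443), Jkamp (0.00988), 4931406G06Rik (0.0268), Psma7 (0.0268), Yy2 (0.0268), 4932438H23Rik (0.0287), Gm12800 (0.0287), Gm4778 (0.0358), Obox3 (0.0358), Smarca2 (0.0358), mt-Nd1 (0.0442), Smpd1 (0.048), Mdm4 (0.0481) and Iars (0.0499). Smarca2 and Mdm4 changed by 0.81 and 0.52 in the first collection and by 3.05 and 2.15 in the second. The mitochondrial gene mt-Nd1 changed by -0.50 and 1.63, and Iars, the isoleucyl-tRNA synthetase, by -1.71 and 0.27. Of the 123 genes, 118 were called in the same direction under scaling by total counts and 113 without A04. Under DESeq2 72 were, and among libraries of at least 500000 counts 1 was.

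The 3 wells without an embryo, which entered no comparison, held 17 counts of Gdf9 among 3151 counts in all, and 1 count of Smarca5.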

How the results depend on the processing

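The count of changed genes stayed within 1.5 times of 3879 under DESeq2 (4720), scaling by total counts (3902), a stricter filter (3709), a minimum of 1000 (4068) or 500000 counts per library (2743), and without A04 (4442), G05 and H05 (4407) or all 3 (4902). It was 8801 of 20228 genes with no filter. Leaving out each of the 29 libraries in turn gave 3484 to 4442 changed genes, 2043 to 2639 higher and 1350 to 1932 lower, and without F01 53.3% of calls were higher. The interaction count was 123, and became 300 without A04, 1263 without A04, G05 and H05, 310 under DESeq2 (3081 adjusted p-values not given), 4 among libraries of at least 500000 counts (fewer libraries) and 174 under scaling by total counts. The cause of the other shifts was not tested. Of 109 named genes fitted 88 were called, and 72 kept their call under every setting and left-out library that gave a value; 0 called genes changed sign. No paired analysis was possible because all libraries of the collection carry replicate number 2. Depth limits the wild-type group most, since 5 of its 14 libraries are under 500000 counts.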

Other observations

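A list of endoplasmic reticulum genes for protein translocation, glycosylation and quality control, written after values were seen, gave 23 rises and 5 falls of 64 tested (median 0.98 against 0.30 over all genes), and 24 and 6 without A04. With all libraries these shares were 35.9% and 7.81%, against 24.1% and 15.7% of all genes tested. Without A04 the shares of all genes were 26.3% and 20.2%. In the first collection 27 rose and 1 fell of 47 tested, where 1508 of all 6389 genes tested rose and 1293 fell. Stt3b, a catalytic subunit of the enzyme that transfers sugar chains to new proteins, rose by 2.84 (adjusted p = 4.5e-08, edgeR's quasi-likelihood test), and Edem1, Sel1l and Edem2, which act in the disposal of misfolded proteins, rose by 3.16, 2.96 and 3.49. Ssr2, a subunit of the translocon-associated complex, fell by 2.22. Hspa5, the main chaperone of the compartment, was not called (-0.06). The choice of this list used these libraries, so its counts are a description.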
